A study of Mus musculus with 6 samples.

Results

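The interferon-stimulated genes (ISGs) described here are 34 named genes whose transcription is known to rise when cells sense interferon. They were listed by name from the interferon pathway, with earlier results of these data known, and all 34 were among the 16494 genes of the table. Single cells of the lower abdominal muscle (LAM) were profiled from 3 wild-type (WT) and 3 Aromhum (labelled Arom) FVB/N male mice aged 9 to 10 weeks, and the cell is not the replicate here but the mouse, so n = 3 for each genotype. Aromhum mice carry the human aromatase gene CYP19A1 as a genomic fragment with its own regulatory region. Aromatase converts androgens to estrogens in several of their tissues, and the labels give the Arom mice as having scrotal hernia and the WT mice as controls. The transgene is thus not limited to LAM, and its UMIs were not split by cell type here. Its action on the tissue cannot be told apart from that of the hernia itself. CYP19A1 had no UMI in the 3 WT libraries and 767, 792 and 784 UMIs in Arom replicates 1, 2 and 3, as their labels say.

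Barcodes with at least 200 genes and 1000 UMIs (unique molecular identifiers, each counted as 1 molecule) numbered 59227 of 63647. Library totals ran from 64958237 to 111826460 UMIs, with a median of 5621 to 9360.5 UMIs per barcode that was kept. Of 63175 distinct barcode sequences, 471 occurred in more than 1 library. The muscle was digested with enzymes and passed through a filter that holds back multinucleated fibers, so mature fibers enter at most as free nuclei. Cells were clustered without the 34 ISGs and without the other interferon genes examined, and clusters were named from marker genes. Values below are in CPM, the usual scaling of a gene's UMIs by all UMIs of the summed cells of a type in a mouse, and since the libraries count 3′ ends, they were not corrected for transcript length. A gene is compared between cells, and a gene called more abundant than another had more UMIs counted.

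Type I interferons such as interferon beta act through the receptor pair Ifnar1 and Ifnar2 and interferon gamma through Ifngr1 and Ifngr2. Janus kinases at these receptors phosphorylate transcription factors, among them Stat2, which with Irf9 is part of the complex ISGF3. ISGF3 binds the interferon-stimulated response element, and interferon gamma is known to act through a second element, the gamma-activated site. The genes they switch on encode antiviral effectors (Isg15, Ifit1, Rsad2, Bst2, Ifitm3), RNA and DNA sensors (Ddx58, Ifih1, Dhx58, Zbp1, Ifi207), GTPases that act on vacuoles of intracellular pathogens (Gbp2, Gbp3, Gbp7, Igtp, Irgm1, Iigp1) and parts of the pathway itself (Stat2, Irf7, Irf9), with Usp18 known as restraining it.

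RefSeq promoter windows of the assembly GRCm38.p6, from 250 bases before to 50 bases after a gene's start, existed for 27 of the 34 ISGs. Usp18, Dhx58, Parp9, Parp14, Rtp4, Zbp1 and Iigp1 had none. The core of the interferon-stimulated response element, searched as GAAANNGAAA on both strands, lay in 16 of the 27 windows (59.3%), against 3.99% of 27025 genes with a window. The letters TTCNNNGAA of a gamma-activated site lay in 6 of the 27 (22.2%: Bst2, Gbp7, Ifi35, Ifit2, Ifitm3 and Igtp) against 9.55%. The stretches of the windows around GAAANNGAAA are shown for 6 genes on which the results below turn, Isg15 and Ifit1 as antiviral effectors, Irgm1, Igtp and Gbp2 as GTPases and Ifi207 as the gene with the opposite cell type pattern. Each is printed 5′ to 3′ along the gene's strand, with GAAANNGAAA or its reverse complement TTTCNNTTTC in capitals.
Isg15 (chr4:156200835-156200936, minus strand): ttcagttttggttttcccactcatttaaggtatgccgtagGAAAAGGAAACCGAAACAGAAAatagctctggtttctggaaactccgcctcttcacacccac
Ifit1 (chr19:34640745-34640853, plus strand): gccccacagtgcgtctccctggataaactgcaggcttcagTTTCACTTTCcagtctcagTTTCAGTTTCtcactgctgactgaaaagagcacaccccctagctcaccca
Irgm1 (chr11:48871395-48871490, minus strand): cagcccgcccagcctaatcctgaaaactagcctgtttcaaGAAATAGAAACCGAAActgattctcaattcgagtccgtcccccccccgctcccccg
Igtp (chr11:58199482-58199571, plus strand): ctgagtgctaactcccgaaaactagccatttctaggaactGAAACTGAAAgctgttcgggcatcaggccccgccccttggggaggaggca
Gbp2 (chr3:142620564-142620653, plus strand): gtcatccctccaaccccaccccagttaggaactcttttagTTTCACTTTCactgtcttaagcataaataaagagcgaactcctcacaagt
Ifi207 (chr1:173741801-173741890, minus strand): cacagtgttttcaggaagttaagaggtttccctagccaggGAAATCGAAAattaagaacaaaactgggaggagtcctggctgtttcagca
Isg15 held 3 overlapping copies and Irgm1 2 overlapping copies. Ifit1 held 2 separate copies, on the opposite strand to the copies in Isg15, Irgm1, Igtp and Ifi207. The ISGs with these letters thus include Ifi207 as well as genes with the reverse pattern of expression between cell types, given next.

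ISG transcripts were most abundant in blood vessel endothelium. The summed level of the 33 ISGs other than Ifitm3, which alone outweighed them in several types, was 5821, 5056 and 4679 CPM in the endothelial cells of WT replicates 1 to 3 and 5302, 4108 and 5273 CPM in those of Arom replicates 1 to 3. In fibroblast-like cells, the most numerous type over all 6 mice together, it was 885, 772 and 770 CPM in WT and 912, 485 and 598 CPM in Arom. Endothelial cells stood above the fibroblast-like cells in every mouse, and the genotypes overlapped in each of these types (means 5186 ± 582 against 4894 ± 681 CPM in endothelial and 809 ± 65.8 against 665 ± 221 CPM in fibroblast-like cells, SD, n = 3 each). Other types lay between these or lower. Smooth muscle cells or pericytes ranged from 1060 to 2215 CPM over the 6 mice, glial cells from 1024 to 2222 CPM and mesothelial cells from 1208 to 2021 CPM. Macrophages or monocytes ranged from 908 to 1719 CPM, lymphatic endothelial cells from 902 to 2493 CPM, muscle stem cells or myoblasts from 234 to 588 CPM and myonuclei from 301 to 553 CPM. These neighbours overlapped, apart from muscle stem cells or myoblasts and myonuclei against the 5 types above fibroblast-like cells.

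**Figure D1:**
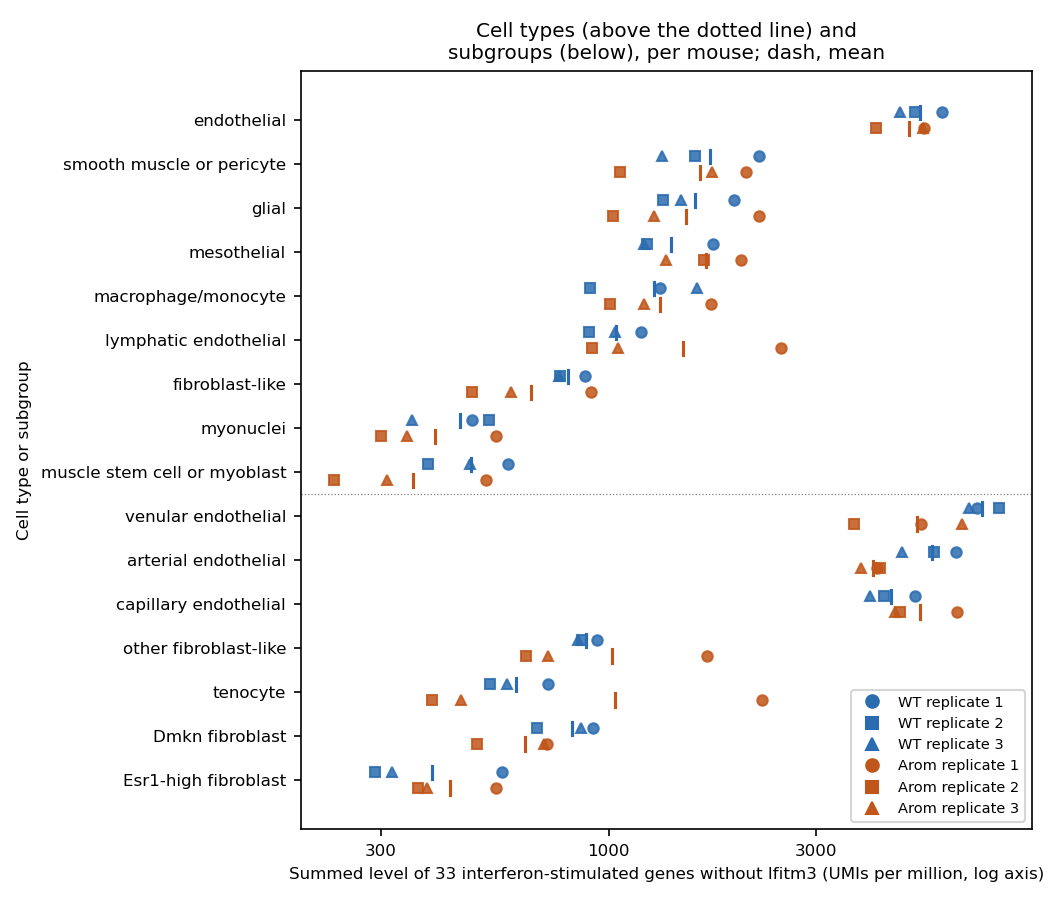
Summed CPM (log axis) of the 33 ISGs other than Ifitm3 in each cell type, a point for each mouse and a dash for the mean of a genotype. Endothelial cells stand at 4108 to 5821 CPM in the 6 mice and fibroblast-like cells at 485 to 912 CPM.

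By its mean over the 6 mice, 23 of the 34 ISGs had its highest level in endothelial cells. The exceptions were Bst2, Lgals3bp, Oasl2 and Zbp1, highest in mesothelial cells, Dhx58, Ifi207, Ifih1 and Rsad2, highest in macrophages or monocytes, and Ifit2, Ifit3 and Ifit3b, highest in glial cells. Rsad2 in macrophages or monocytes (91.4 ± 60.1 CPM) and Ifit3 in glial cells (19.5 ± 15.7 CPM) varied widely between the 6 mice (SD). T or NK cells were left out of this ranking. Ifitm3, a membrane protein that blocks virus entry, reached 4890 ± 192 CPM in endothelial cells (SD, n = 6). Iigp1 reached 1631 ± 235 CPM and Isg15, a ubiquitin-like modifier, 821 ± 205 CPM there. Bst2, which tethers budding virions, stood at 715 ± 225 CPM in mesothelial cells.

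In the comparison of endothelial with fibroblast-like cells of the same mice, 30 of the 34 ISGs were higher in endothelial cells (background: 36.7% of the 13040 genes tested were higher) and 2 were lower (39.4%). Their median log2 difference was 2.19. The largest differences were those of Ifi44 (14.4 against 0.182 CPM, log2 difference 6.29 ± 0.32, SE), Iigp1 (1590 against 34.2 CPM, 5.68 ± 0.27), Rsad2 or viperin (36.2 against 2.37 CPM, 4.53 ± 0.56) and Isg15 (801 against 42.6 CPM, 4.33 ± 0.20). Igtp (89.6 against 6.42 CPM, 3.86 ± 0.16) and Ifit1, which binds viral RNA (116 against 14.2 CPM, 3.84 ± 0.41), followed. The pair that was lower comprised Ifi207, a DNA-binding member of the Ifi200 family (5.29 against 132 CPM, −4.65 ± 0.46), and the nucleic acid sensor Zbp1 (2.66 against 12.7 CPM, −1.95 ± 0.33). Lgals3bp (−0.34) and Ifit2 (0.22) did not pass the test. The counts of 30 and 2 held with each of the 6 mice left out.

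**Figure D2:**
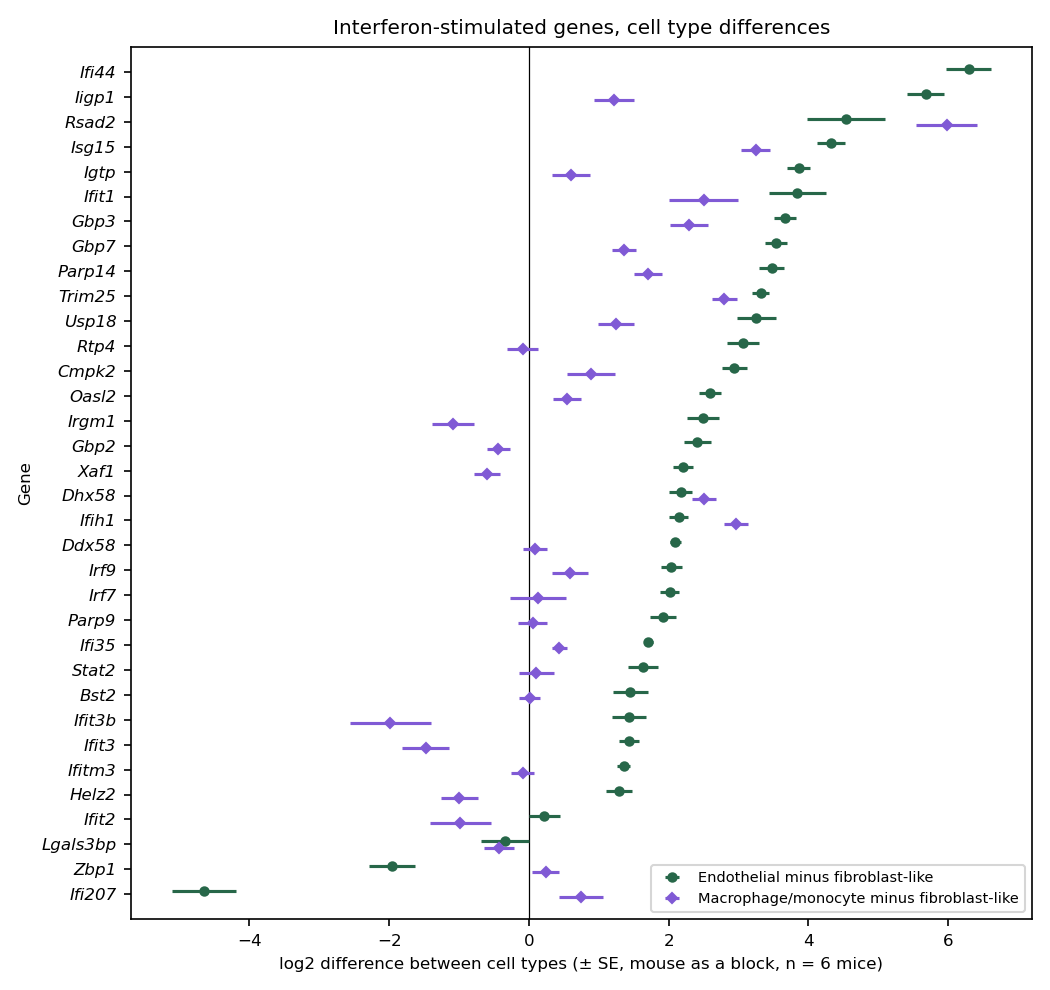
Log2 difference of each ISG between endothelial and fibroblast-like cells of the same mouse (points, with bars for the SE, n = 6 mice). Of the 34, 30 were higher in endothelial cells, from Ifi44 at 6.29 downward, and Ifi207 lies lowest at −4.65.

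Free RNA from endothelial cells could reach other barcodes, so endothelial markers were measured in fibroblast-like cells. Their 11 markers summed to 107, 125 and 145 CPM there in WT and 87.0, 90.5 and 105 CPM in Arom, which is 1.19% to 1.57% of their level in endothelial cells. Iigp1 in fibroblast-like cells stood at 0.899% to 2.84% of its endothelial level, and Ifi44 at 0.44% to 2.79%, ranges that take in that of the markers and reach above it. Rsad2 stood at 0.55% to 5.72% in 5 of the mice and at 21.2% in Arom replicate 1. Irf9 at 15.2% to 31.7% and Stat2 at 16.2% to 50.5% stood well above them. How much of the Iigp1 and Ifi44 in fibroblast-like cells was free RNA was not tested, and their levels are not read as expression by these cells.

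Macrophages or monocytes differed from fibroblast-like cells in a more mixed way. Of 33 ISGs tested, 14 were higher (31.6% of all genes tested) and 6 lower (35.8%), and within the study's limits on genes and mitochondrial UMIs per cell 8 of 31 tested were higher (30.5% of genes there) and 13 lower (35.8% there). Rsad2 stood at 97.4 against 2.15 CPM (5.98 ± 0.44), and Isg15 (3.24), the RNA sensors Ifih1 (2.96) and Dhx58 (2.51), the ubiquitin ligase Trim25 (2.79) and Ifit1 (2.50) followed. The 6 that were lower were Ifit3b (−1.99), Ifit3 (−1.48), Irgm1 (−1.08), Helz2 (−0.99), Xaf1 (−0.60) and Gbp2 (−0.44). Of the Ifit genes, which lie together on chromosome 19, Ifit1 was thus higher in macrophages or monocytes and Ifit3 and Ifit3b lower.

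The share of cells with ISG transcripts was compared after thinning each cell to 2000 UMIs. At least 3 UMIs of the 33 ISGs were found in 84.1% ± 3.2 of WT and 81.7% ± 4.3 of Arom endothelial cells, and in 21.3% ± 2.9 and 18.2% ± 6.8 of fibroblast-like cells (SD, n = 3 each). Muscle stem cells or myoblasts, with few ISG transcripts, gave 10.8% in WT and 6.34% in Arom. The high endothelial level was thus spread over most cells of the type. Before thinning, the share was 86.5% to 89.7% in WT and 85.4% to 91.2% in Arom for endothelial cells, and 69.2% to 74.0% in WT and 65.7% to 80.1% in Arom for fibroblast-like cells. The median depth was lower in endothelial cells in each of the 6 mice (3216 to 5381 UMIs over the mice, against 8585.5 to 12552 UMIs).

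The makeup of the libraries differed between genotypes. Endothelial cells held 19.1%, 23.0% and 31.3% of all UMIs of kept barcodes in WT replicates 1 to 3 and 8.94%, 5.82% and 14.3% in Arom replicates 1 to 3. They held 46.4%, 44.8% and 49.8% of the UMIs of the 33 ISGs in WT and 28.8%, 23.7% and 45.9% in Arom. Clusters left unnamed and outside the tests held another 25.2%, 36.6% and 36.1% of these ISG UMIs in WT and 12.3%, 16.2% and 18.02% in Arom. The largest of them, with endothelial and smooth muscle or pericyte markers at like scores, had 33-ISG sums of 5653, 5591 and 4940 CPM in WT and 5472, 4232 and 4653 CPM in Arom, in the range of endothelial cells. Over whole libraries, the 33 ISGs summed to 2403, 2592 and 2942 CPM in WT and 1644, 1008 and 1643 CPM in Arom. The whole-library levels did not overlap, with Arom lower, while the sums of the 33 within endothelial and fibroblast-like cells did. With Ifitm3 included, the sum in fibroblast-like cells was 2974, 2818 and 2781 CPM in WT and 2541, 1984 and 2264 CPM in Arom, also without overlap, and that in endothelial cells overlapped. Within the study's limits the fibroblast-like sums with Ifitm3 overlapped, at 3321, 3500 and 2867 CPM in WT and 5158, 2836 and 2956 CPM in Arom.

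The genotype comparison in endothelial cells asked whether their ISGs differed between Arom and WT mice. Values of single genes given with a test, here and in the comparisons of types above, are CPM on library sizes scaled by TMM, edgeR's trimmed mean of M-values. Of 34 ISGs, 2 were higher in Arom (background 8.49% of 12018 genes) and 1 was lower (6.32%). Gbp2 was measured at 302, 234 and 249 CPM in WT and 420, 332 and 439 CPM in Arom, so that each Arom mouse lay above each WT mouse (log2 fold change 0.60 ± 0.15, SE, adjusted p = 0.0245). Ifi207, at 5.15, 2.12 and 3.39 CPM in WT and 8.29, 5.32 and 8.43 CPM in Arom, was low in all 6 mice and higher in Arom (1.10 ± 0.31, adjusted p = 0.0393). Cmpk2, a mitochondrial nucleotide kinase, fell from 16.7, 15.2 and 15.4 CPM to 10.1, 9.43 and 12.7 CPM (−0.54 ± 0.15, adjusted p = 0.0364). These calls depended on single mice. Gbp2 was not called without WT replicate 2 or 3 or Arom replicate 1 or 3 (adjusted p = 0.0532 to 0.0914), Ifi207 without any mouse but WT replicate 1 (0.0541 to 0.138) and Cmpk2 without any mouse but Arom replicate 3 (0.0731 to 0.127).

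Other abundant ISGs did not pass the test in endothelial cells. Ifitm3 stood at 5014, 4656 and 4611 CPM in WT and 5173, 4831 and 5089 CPM in Arom (adjusted p = 0.679), and Iigp1 at 1884, 1521 and 1318 CPM against 1797, 1404 and 1880 CPM (adjusted p = 0.699). Isg15 was at 1153, 884 and 832 CPM in WT and 825, 524 and 713 CPM in Arom (−0.48, adjusted p = 0.108), with each Arom mouse below each WT mouse. Irgm1, at 332, 295 and 324 CPM against 236, 153 and 285 CPM (−0.49, adjusted p = 0.111), had the same order. That order was found for 6 of the 34 ISGs (17.3% of genes with a mean of at least 5 CPM) and the reverse for 3 (21.7%). Bst2 (339, 356 and 330 against 357, 232 and 238 CPM, adjusted p = 0.226) overlapped. Parp14 (244, 181 and 226 against 219, 214 and 273 CPM, log2 fold change 0.12) and Gbp7 (172, 158 and 146 against 165, 154 and 190 CPM, 0.10) overlapped as well. The median log2 fold change of the 34 ISGs was −0.071, beside −0.0074 for all genes, and it turned to 0.066 without Arom replicate 2 and to 0.108 within the study's limits on genes and mitochondrial UMIs per cell.

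Deviations of WT and Arom endothelial sums with the same replicate number correlated weakly (0.237, 0.149 and 0.316), and the methods do not tie the numbers to dates. With the number as a block, 7 ISGs were lower (10.7% of all genes under the block) and 2 higher (13.7%). Gbp2 (0.60, adjusted p = 0.00267) and Ifi207 (1.09, adjusted p = 0.00324) were again higher. Cmpk2 (−0.55, adjusted p = 0.0189), Irgm1 (−0.54, 0.0161), Isg15 (−0.49, 0.0116), Trim25 (−0.52, 0.0207), Xaf1 (−0.40, 0.0342), Rsad2 (−0.55, 0.0331) and Irf9 (−0.32, 0.0494) were lower.

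The makeup of the endothelial cells moved with genotype. Venular cells gave 28.2%, 15.1% and 19.2% of endothelial UMIs in WT and 59.8%, 50.2% and 45.4% in Arom. Of 14 stress genes, which digestion at 37 °C is known to induce, 8 were lower in Arom endothelial cells, their sum falling from 25042, 22271 and 23426 CPM to 16406, 14793 and 17080 CPM. The 9 fibroblast markers summed to 193 to 322 CPM in WT and 442 to 522 CPM in Arom endothelial cells, a fact that stands beside the higher Ifi207 there, since Ifi207 was far higher in fibroblast-like cells. The part of these shifts in the ISG values was not tested, except that with equal weight for capillary, arterial and venular cells the median log2 fold change was −0.232 and by limma 1 ISG was lower (0.283% of genes) and none higher (1.18%).

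Within the endothelium, ISGs differed between vessel segments. The 33 ISGs summed to 7005, 7879 and 6717 CPM in WT venular cells, to 6301, 5609 and 4719 CPM in WT arterial cells and to 5060, 4296 and 3992 CPM in WT capillary cells, so in each WT mouse venular cells stood highest and capillary cells lowest. In Arom mice the order was not kept. Venular cells gave 5224, 3664 and 6481 CPM, arterial cells 4132, 4208 and 3793 CPM and capillary cells 6328, 4676 and 4556 CPM. All Arom venular and arterial values lay below those of WT, and capillary values overlapped.

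In venular cells, named from Ackr1, Selp, Vwf and other markers of the venules through which leukocytes leave the blood, all 34 ISGs had a negative log2 fold change (median −0.61, beside 0.011 for all genes). None passed edgeR's test (0 of 34, beside 0.719% of genes higher and 0.413% lower), with 19 at an unadjusted p under 0.05, while DESeq2 called 9 lower (1.96% of genes by that tool). Counts at an unadjusted p, here and below, are given without the share of all genes at that p. They are not read as results about the ISGs. Isg15 was at 761, 911 and 793 CPM in WT and 417, 199 and 542 CPM in Arom (−1.09, adjusted p = 0.0923). Irgm1, a GTPase of autophagy and pathogen defence, was at 435, 501 and 490 CPM against 219, 119 and 342 CPM (−1.06, adjusted p = 0.0982). Trim25, which ubiquitinates the sensor Ddx58, was at 108, 118 and 117 CPM against 47.1, 28.4 and 80.1 CPM (−1.12, adjusted p = 0.0854). In each of these the Arom mice lay below the WT mice without overlap, Arom replicate 2 lowest. Such a gap between the genotypes was found for 13 of the 34 ISGs, beside 6.02% of 8113 genes with a mean of at least 5 CPM.

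With the replicate number as a block, 8 ISGs were lower in Arom venular cells (2.55% of all genes under the block) and none higher (2.02%). They were Trim25 (−1.20, adjusted p = 0.0270), Xaf1 (−0.93, 0.0288), Irf7 (−0.88, 0.0315), Irgm1 (−1.17, 0.0352), Oasl2 (−0.91, 0.0400), Isg15 (−1.18, 0.0428), Irf9 (−0.72, 0.0484) and Parp14 (−0.62, 0.0492). Irf7, the transcription factor that amplifies type I interferon production, was at 86.0, 77.5 and 76.2 CPM in WT and 47.9, 27.5 and 56.1 CPM in Arom. Xaf1, a pro-apoptotic factor, was at 83.1, 118 and 94.5 CPM against 47.1, 39.6 and 66.9 CPM. The genotypes were apart for these as well. Pairing by replicate number was examined in all endothelial cells together and not in venular, arterial or capillary cells. Results with the block in these segments rest on that pairing.

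The share of venular cells with at least 3 UMIs of the 33 ISGs at 2000 UMIs was 95.9%, 93.9% and 95.0% in WT and 80.6%, 70.5% and 93.3% in Arom. Arom replicate 3 was close to the WT mice and Arom replicate 2 farthest from them. The sums of other cell type markers overlapped between the genotypes there, while the endothelial gene Cldn5 did not. The 9 smooth muscle or pericyte markers summed to 1482 to 1889 CPM in WT and to 904 to 1701 CPM in Arom venular cells, and the 10 macrophage or monocyte markers to 65.7 to 107 CPM and 69.3 to 273 CPM. The 11 endothelial markers kept their level (4966 to 5919 and 5453 to 5609 CPM), but among them the junction gene Cldn5 stood at 321 to 538 CPM in WT and 88.2 to 255 CPM in Arom. Of the 14 stress genes, 12 were negative in venular cells and 3 were lower (median −0.53), and 13 were negative in arterial cells and 3 lower (median −0.45). Their part in the lower ISG values was not tested.

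Arterial cells, named from Sox17, Gja4 and other markers, had 31 of 32 tested ISGs on the negative side (median −0.38), and 1 passed the test as lower (0.22% of genes), none as higher (0.373%). It was Irgm1, at 431, 427 and 404 CPM in WT and 211, 195 and 250 CPM in Arom (−0.94 ± 0.14, adjusted p = 0.0159). The groups were far apart, but the call was lost without WT replicate 1 (adjusted p = 0.0643), WT replicate 2 (0.0684) or Arom replicate 2 (0.136). With the block, 5 were lower (1.49% of genes) and none higher (2.1%). They were Irgm1 (−0.94, adjusted p = 0.00228), Isg15 (−0.62, 0.0103), Iigp1 (−0.60, 0.0163), Rtp4 (−0.56, 0.0258) and Igtp (−0.77, 0.0407). Isg15 was at 1777, 1348 and 1137 CPM in WT and 1021, 903 and 820 CPM in Arom. In 12 of the 34 ISGs the Arom mice all lay below the WT mice, beside 7.8% of 8640 genes.

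Capillary cells went the other way in sign. Of 33 tested, 28 had a positive log2 fold change (median 0.195) and none passed edgeR's or DESeq2's test (1.44% of genes were higher and 0.334% lower by edgeR), with 7 at an unadjusted p under 0.05. Ifi44 was at 7.95, 7.83 and 6.77 CPM in WT and 21.6, 10.5 and 10.4 CPM in Arom (0.87, adjusted p = 0.139, and 0.83 with adjusted p = 0.0338 with the block). Ifit1 was at 83.8, 68.1 and 52.8 CPM against 254, 92.4 and 60.6 CPM, and was the other gene called with the block (0.76, adjusted p = 0.0276). These were 2 of 33 higher under the block (3% of genes) and none lower (1.42%). The Arom values of Ifit1 overlapped those of WT and the highest was Arom replicate 1.

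**Figure D3:**
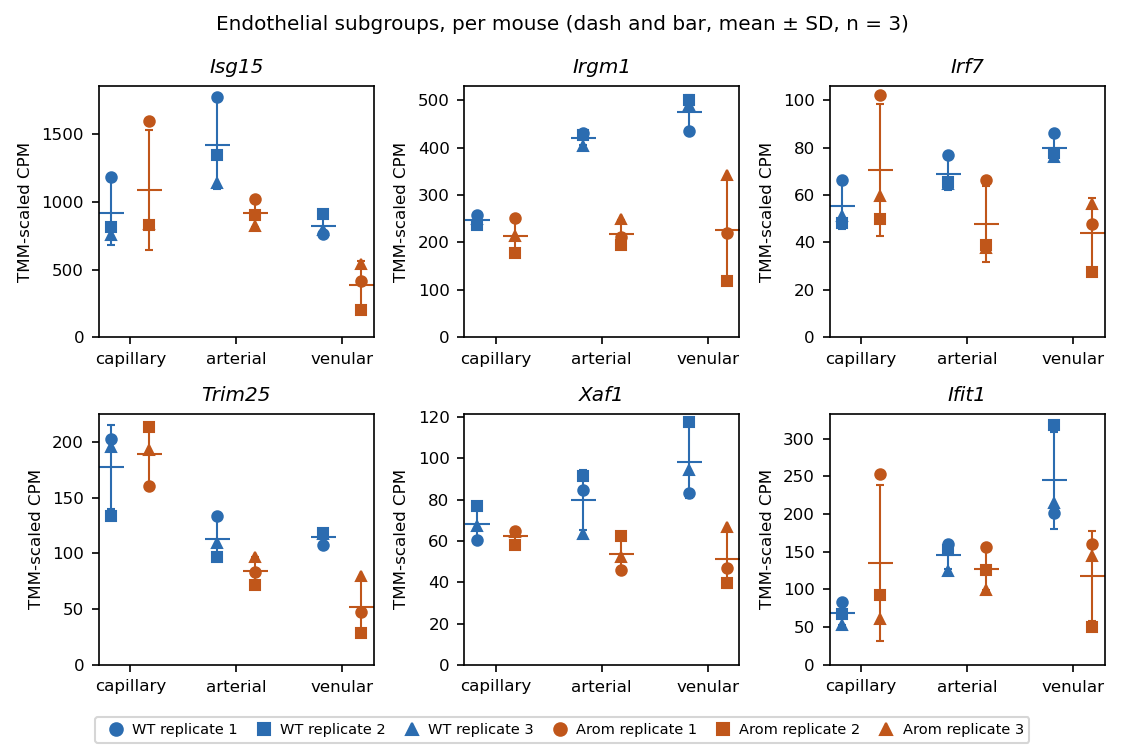
TMM-scaled CPM of 6 ISGs in capillary, arterial and venular endothelial cells of each mouse, with the mean ± SD of each genotype (n = 3). Isg15 in venular cells runs from 761 to 911 CPM in WT and from 199 to 542 CPM in Arom.

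The difference between segments was tested directly, a comparison added after the subgroup values were seen. The log2 fold change was more negative in venular than in capillary cells for 34 of 34 ISGs (median difference −0.91), and 15 of these differences passed the test (2.61% of genes), with none in the other direction (0.538%). They were led by Ifit1 (−1.92), Ifi207 (−1.66), Isg15 (−1.41), Ifi44 (−1.30) and Trim25 (−1.28). The count depended on the mice. It was 0 without WT replicate 2 or Arom replicate 1, 1 without WT replicate 3 or Arom replicate 2, 8 without WT replicate 1 and 27 without Arom replicate 3 (6.63% of genes in that fit), and it was 0 within the study's limits on cells, 0 without the mouse as a block and 7 with finer clusters.

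In fibroblast-like cells, which make the collagen matrix of the muscle, 33 ISGs were tested (Ifi44 was too low), of which 4 were lower in Arom (5.77% of 13945 genes) and none higher (7.23%). Ifi207 was at 179, 168 and 181 CPM in WT and 66.1, 70.5 and 106 CPM in Arom (−1.12 ± 0.18, adjusted p = 0.0216). Irf9, the DNA-binding subunit of ISGF3, was at 24.0, 22.0 and 24.4 CPM against 11.1, 8.84 and 14.4 CPM (−1.03 ± 0.18, adjusted p = 0.0227). Ifit2 was at 8.92, 9.30 and 8.24 CPM against 4.56, 4.01 and 5.59 CPM (−0.90 ± 0.15, adjusted p = 0.0220). In these 3 genes the genotypes did not overlap and the WT mice differed little among themselves. Over the 34 ISGs, 14 had each Arom mouse below each WT mouse in fibroblast-like cells, and 1 had the reverse order. Among all genes with a mean of at least 5 CPM there, the shares were 12.97% and 26.47%.

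Parp9, an ADP-ribosyltransferase family member, fell from 23.5, 19.6 and 17.2 CPM to 13.9, 9.48 and 12.8 CPM (−0.74 ± 0.18, adjusted p = 0.0408). Stat2, partner of Irf9 in ISGF3, was at 20.9, 22.4 and 23.0 CPM in WT and 7.16, 6.57 and 15.3 CPM in Arom and fell just outside the threshold (−1.19, adjusted p = 0.05002). The transcripts of both genes of the ISGF3 pair were thus lower in each Arom mouse than in each WT mouse, although only that of Irf9 was called.

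The 4 calls did not hold without every mouse. None of them passed without any 1 of the 3 WT mice or without Arom replicate 1 or 2 (adjusted p = 0.0668 to 0.119), whereas without Arom replicate 3 8 ISGs were lower (14.1% of all genes in that fit) and 3 higher (15.5%). The median log2 fold change of the 33 was −0.38, beside 0.0082 for all genes, with 24 negative and 9 positive. Within the study's limits, which removed most fibroblast-like cells with many genes, no ISG was called and the median was 0.387, so the direction turned.

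Of the abundant ISGs, Ifitm3 was at 2201, 1989 and 2010 CPM in WT and 1674, 1512 and 1573 CPM in Arom fibroblast-like cells (−0.38, adjusted p = 0.0766), without overlap. Irgm1 was at 84.6, 74.0 and 70.0 CPM against 38.0, 12.02 and 35.8 CPM (−1.41, adjusted p = 0.0555), and the helicase coactivator Helz2 at 42.7, 38.1 and 40.4 CPM against 24.3, 15.7 and 30.1 CPM (−0.79, adjusted p = 0.0559). These too were apart between genotypes but did not pass the test. Gbp2 (72.1, 65.4 and 59.4 against 63.9, 38.7 and 49.5 CPM, −0.37, adjusted p = 0.201), Isg15 (65.9, 28.7 and 43.8 against 64.9, 24.9 and 21.2 CPM, −0.32, adjusted p = 0.670) and Iigp1 (55.9, 32.3 and 29.2 against 48.0, 12.9 and 21.5 CPM, −0.51, adjusted p = 0.484) overlapped. As given above, the Iigp1 level is not read as expression by these cells. Bst2 pointed the other way, at 108, 67.8 and 67.8 CPM in WT and 232, 134 and 87.3 CPM in Arom (0.90, adjusted p = 0.134).

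The makeup of the fibroblast-like cells also moved with genotype. Esr1-high cells, named from the estrogen receptor gene Esr1 and Greb1, Pgr and other markers, gave 15.9%, 9.96% and 10.8% of fibroblast-like UMIs in WT and 42.7%, 40.3% and 31.6% in Arom. Mmp3-high cells gave 4.65%, 0.0878% and 0.401% in WT and 21.5%, 25.7% and 0.257% in Arom. Of the 14 stress genes, 6 were lower in Arom fibroblast-like cells and all 14 were negative, their sum running from 15640 to 18214 CPM in WT and from 9285 to 12202 CPM in Arom. With equal weight for the 4 subgroups tested, 1 ISG was called lower by limma (2.8% of genes) and the median log2 fold change was −0.083.

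Within Esr1-high cells, 4 of 28 ISGs tested were lower in Arom (6.19% of genes) and none higher (5.32%), with 23 negative and a median log2 fold change of −0.64. Of the 14 stress genes, 8 were lower and all 14 negative in these cells (median −0.77). Their part in the ISG values was not tested. The summed level of the 33 ISGs overlapped between genotypes there, at 569, 291 and 318 CPM in WT and 551, 366 and 382 CPM in Arom. Ifit2 was at 8.88, 9.19 and 13.4 CPM in WT and 2.25, 2.80 and 3.10 CPM in Arom (−1.92 ± 0.25, adjusted p = 0.00682), and it was called with each mouse left out. Within the study's limits Esr1-high cells were too few for this test, and Ifit2 in all fibroblast-like cells stood at 0.0093 there. Irf9 was at 22.2, 13.4 and 18.5 CPM against 6.27, 5.25 and 8.24 CPM (−1.48, adjusted p = 0.0150, lost without WT replicate 1 or 3 or Arom replicate 1 at 0.0540 to 0.0679). Ifitm3 was at 1849, 1399 and 1586 CPM against 1045, 927 and 1075 CPM (−0.67, adjusted p = 0.0334). Gbp7 was at 17.3, 11.7 and 10.6 CPM against 6.605, 3.499 and 7.25 CPM (−1.25, adjusted p = 0.0456). No value of these 4 genes overlapped between the genotypes, but Ifitm3 (adjusted p = 0.0633 to 0.116) and Gbp7 (0.0894 to 0.163) were called only with all mice or without Arom replicate 3. Each Arom mouse lay below each WT mouse for 6 of the 34 ISGs there, beside 14.7% of genes with a mean of at least 5 CPM.

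The other fibroblast-like cells, the largest subgroup with 11408 cells, had 2 of 33 ISGs lower (2.57%) and none higher (2.6%). Yet 22 of the 33 were positive there and the median log2 fold change was 0.228, opposite in sign to that of all fibroblast-like cells. The 33 ISGs summed to 941, 868 and 849 CPM in WT and 1680, 647 and 727 CPM in Arom, so that Arom replicate 1 stood above and the other Arom mice below every WT mouse. All 14 stress genes were negative in these cells and 5 were lower (median −0.57). Their part in the ISG values was not tested. Ifi207 was at 232, 211 and 233 CPM in WT and 157, 152 and 167 CPM in Arom (−0.50 ± 0.09, adjusted p = 0.0264), and Stat2 at 23.3, 25.8 and 25.6 CPM against 15.01, 15.2 and 19.1 CPM (−0.59 ± 0.12, adjusted p = 0.0337). The genotypes did not overlap in either gene, yet neither call held without any WT mouse or without Arom replicate 1 or 2 (adjusted p = 0.0502 to 0.131). In these cells 3 of the 34 ISGs had each Arom mouse below each WT mouse, beside 11.0% of genes with a mean of at least 5 CPM. In Dmkn fibroblasts, 1 of 28 was lower (0.154% of genes), none higher (0.264%), with 22 negative and a median of −0.56. It was Irgm1, at 35.8, 17.0 and 26.8 CPM against 7.99, 3.84 and 6.90 CPM (−2.24 ± 0.34, adjusted p = 0.0391), lost without WT replicate 1 or 3 or Arom replicate 1 or 2 (0.117 to 0.225). Mmp3-high cells were not tested, since WT replicate 2 had 2 of them, WT replicate 3 had 4 and Arom replicate 3 had 11.

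**Figure D4:**
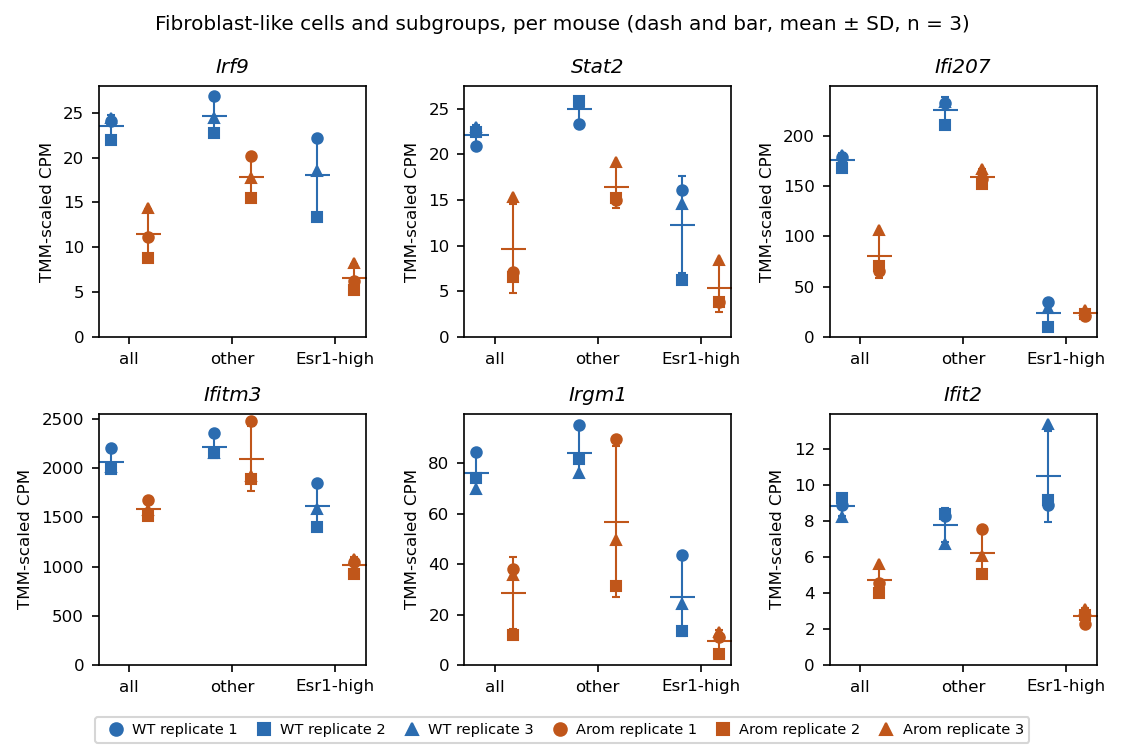
TMM-scaled CPM of 6 ISGs in all fibroblast-like cells, in Esr1-high cells and in the other fibroblast-like cells of each mouse, with the mean ± SD of each genotype (n = 3). Ifit2 in Esr1-high cells stands at 8.88 to 13.4 CPM in WT and 2.25 to 3.10 CPM in Arom.

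Whether the genotype difference itself differed between endothelial and fibroblast-like cells was tested with the mouse as a block. Of 34 ISGs, 10 had a higher log2 fold change in endothelial cells (7.1% of genes) and 1 a lower one (4.31%). The largest was that of Ifi207 (2.24, adjusted p = 0.00595), which was higher in Arom endothelial cells, where the fibroblast markers given above were also higher, and lower in Arom fibroblast-like cells. The part of those markers in this difference was not tested. Stat2 (1.07, adjusted p = 0.0118), Irgm1 (1.02, 0.0244), Gbp2 (0.99, 0.006603) and Parp9 (0.95, 0.006603) followed, and Bst2 was the gene with a lower one (−1.16, 0.0225). Ifi207, Gbp2, Parp9 and Irf9 (0.73, 0.0105) passed with each mouse left out. The count of 10 became 4 without WT replicate 2 and 6 without WT replicate 3, 1 within the study's limits and 2 without the mouse as a block, while Bst2 was lost without WT replicate 2 or 3 or Arom replicate 1 or 2.

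The log2 fold change was also set between Esr1-high and other fibroblast-like cells, a comparison added after the subgroup values were seen. The log2 fold change was more negative in Esr1-high cells for 30 of 33 ISGs (median difference −0.95). Of all 33, 13 were at an unadjusted p under 0.05, a count not read as a result, as stated above. Only 1 passed the test, Gbp7 (−1.35, adjusted p = 0.0475, beside 1.26% of genes lower and 1.04% higher). Gbp7 was lost without any mouse but Arom replicate 3, and 9 ISGs were lower without that mouse (3.43% of genes in that fit). No ISG passed without the mouse as a block.

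**Figure D5:**
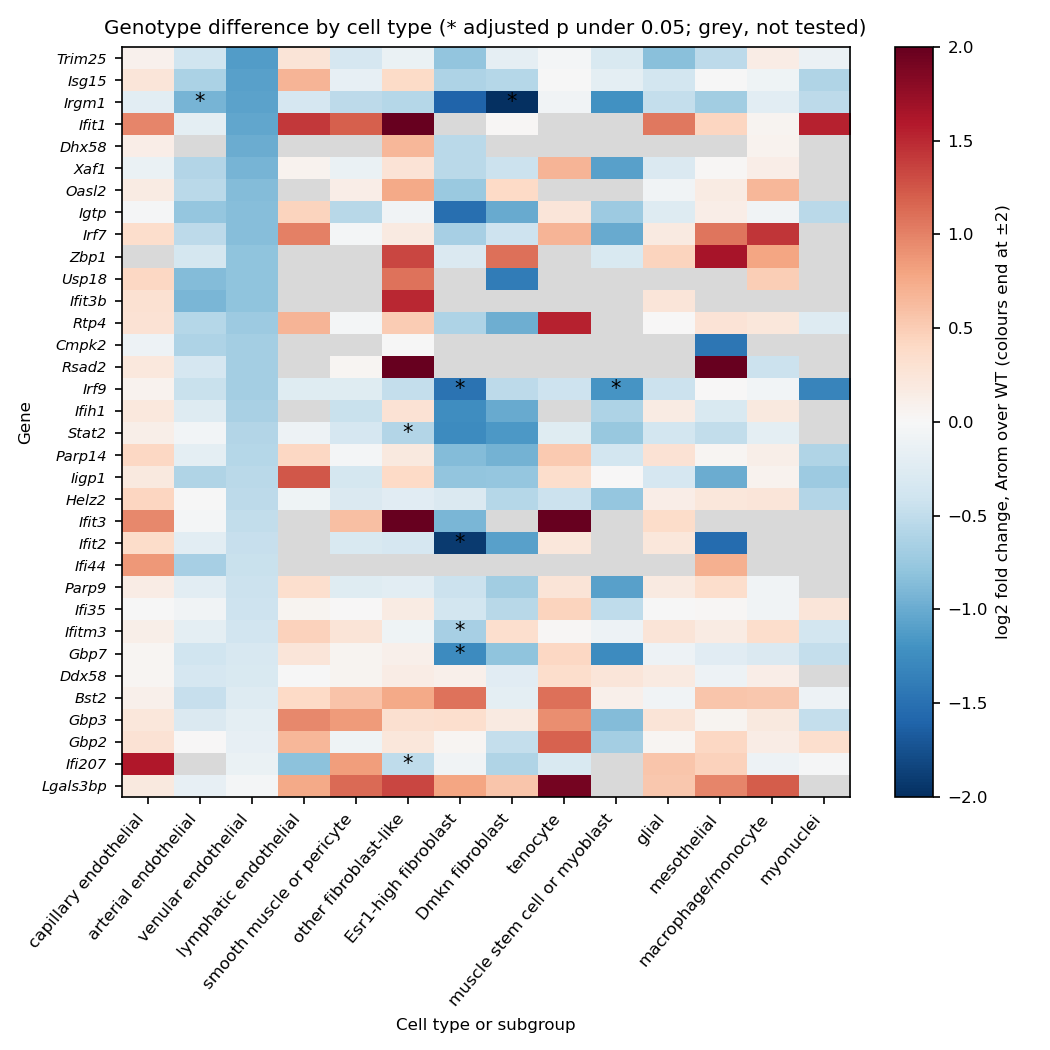
Log2 fold change (Arom against WT) of the 34 ISGs (rows) in 14 cell types and subgroups (columns), with colours ending at ±2, grey where a gene was not tested and an asterisk at an adjusted p under 0.05 without a block. Venular and arterial columns are negative for 34 of 34 and 31 of 32 tested ISGs, and the capillary column is positive for 28 of 33.

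Of the remaining types, muscle stem cells or myoblasts had 1 of 21 ISGs lower in Arom (1.4% of genes) and none higher (1.74%), with 18 negative. It was Irf9 again, at 35.9, 25.4 and 31.5 CPM in WT and 13.2, 9.49 and 19.2 CPM in Arom (−1.17 ± 0.26, adjusted p = 0.0435). The genotypes did not overlap, and the call was lost without any mouse but Arom replicate 3 (0.0863 to 0.189). Each Arom mouse lay below each WT mouse for 4 of the 34 ISGs here, beside 8.96% of genes with a mean of at least 5 CPM. The 9 fibroblast markers summed to 659 to 896 CPM in these cells in WT and to 1437 to 4151 CPM in Arom, and 14 of 14 stress genes were negative there, 4 of them called lower (median −0.86, beside −0.68 for the 21 ISGs). Their part was not tested.

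By edgeR no ISG was called in macrophages or monocytes (0 of 29, none of them at an unadjusted p under 0.05), where 0% of genes were called in either direction. None was called in lymphatic endothelial cells (23 tested, 4 at an unadjusted p under 0.05, 0.0788% of genes higher and 0.0131% lower), glial cells (29 tested, 2, 0.305% and 0.179%), myonuclei (17 tested, 2, 0.149% and 0.365%), smooth muscle cells or pericytes (28 tested, 5, 1.54% and 0.539%), mesothelial cells (30 tested, 8, 0.249% and 0.0343%) or tenocytes (24 tested, 1, 0.647% and 0.558%). DESeq2 called 1 higher in lymphatic endothelial cells (0.276% of genes by that tool), 3 higher (3.42%) and 2 lower (2.11%) in mesothelial cells and none in the other 5 (0.116% to 1.92% of genes in either direction). In mesothelial cells, which line the body cavity, Zbp1 was at 17.4, 6.602 and 8.17 CPM in WT and 45.7, 31.0 and 22.5 CPM in Arom (1.64, adjusted p = 0.0773), and Lgals3bp, a secreted galectin ligand, at 47.5, 40.1 and 47.0 CPM against 109, 80.9 and 72.6 CPM (0.97, adjusted p = 0.0602). Both genes, chosen after their values were seen, had each Arom mouse above each WT mouse without passing the test. They were the 2 of 34 with that order (10.3% of genes with a mean of at least 5 CPM), while 7 of 34 had each Arom mouse below each WT mouse (16.5%).

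Of the Arom mice, replicates 1 and 2 often stood at the ends of the range. Arom replicate 1 had the highest level of the 6 mice for 28 of the 34 ISGs in the other fibroblast-like cells. The share of all genes with a mean of at least 5 CPM was 18.9% there. It was highest for 30 in tenocytes (19.3%), 28 in lymphatic endothelial cells (19.6%), 25 in glial cells (22.1%) and 23 in capillary cells (20.7%). In venular cells it was highest for 1 (22.5%). Ifit1 in the other fibroblast-like cells was at 10.2, 5.66 and 5.47 CPM in WT and 137, 3.95 and 6.65 CPM in Arom. Ifit3 was at 5.18, 4.08 and 4.72 CPM against 55.7, 3.24 and 3.97 CPM there, and Rsad2 at 0.673, 0.218 and 1.74 CPM against 21.2, 0.705 and 1.01 CPM. In each of these, Arom replicates 2 and 3 lay near the WT mice and replicate 1 stood alone.

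In tenocytes, the cells of tendon, the 33 ISGs summed to 724, 535 and 584 CPM in WT and 2248, 392 and 459 CPM in Arom, and the share of cells with at least 3 UMIs of them at 2000 UMIs was 50.4% in Arom replicate 1 and 7.08% to 13.6% in the other 5 mice. In lymphatic endothelial cells, Isg15 was at 286, 130 and 182 CPM in WT and 639, 194 and 141 CPM in Arom. Of the clusters that made up the other fibroblast-like cells, one gave 808, 755 and 698 CPM in WT and 2161, 548 and 645 CPM in Arom. The high values of Arom replicate 1 were thus found in several types but not in all. It was highest for 3 of 34 ISGs in arterial cells (23.9% of genes), 6 in Esr1-high cells (13.8%), 7 in Dmkn fibroblasts (13.6%) and 8 in all endothelial cells (21.4%). Arom replicate 2 was the lowest of the 6 mice for 29 of 34 ISGs in venular cells (11.4% of genes), 27 in fibroblast-like cells (19.3%) and 20 in smooth muscle cells or pericytes (16%), but for 4 in arterial cells (20.7%), 5 in capillary cells (22.2%) and 8 in mesothelial cells (24.2%).

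Interferon genes themselves were rarely counted. Ifnb1, which encodes interferon beta, had 114 UMIs in Arom replicate 1 and 52 in Arom replicate 3, 159 of these 166 UMIs (95.8%) in macrophages or monocytes, and it was listed at 0 in the other 4 libraries. Ifng had 34 UMIs, all in Arom replicate 2, and Ifnk had 23, 40 and 0 UMIs in WT and 32, 30 and 0 in Arom. Low genes were listed at 0 library by library in this table, so a 0 is not read as absence. The ISG Mx1, which is defective in many laboratory strains, had 75 UMIs, all in Arom replicate 1, and Oas1g had 30, all in the same mouse. The other type I and lambda interferon genes were not analysed here.

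Of the 5 receptor genes tested between endothelial and fibroblast-like cells, Il10rb was higher in endothelial cells (log2 difference 0.49 ± 0.11, adjusted p = 0.00413) and Ifngr2 lower (−1.41 ± 0.08, adjusted p = 5.7e-07). Ifnar1 averaged 17.6 and 17.2 CPM, Ifnar2 90.0 and 78.2 CPM, Ifngr1 137 and 114 CPM, Ifngr2 14.8 and 36.7 CPM and Il10rb, which serves interferon lambda and interleukin 10 receptors, 41.9 and 27.5 CPM over the 6 mice. Ifnlr1 was listed with 26 UMIs in Arom replicate 2 and 24 in Arom replicate 3. The transcription factor Irf1 was higher in endothelial cells, at 739 and 149 CPM (2.30 ± 0.12, adjusted p = 3.1e-07).

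Of a list of 82 further interferon pathway genes present in the table, 70 were tested in fibroblast-like cells, where 8 were lower in Arom (5.77% of all genes) and 1 higher (7.23%). Ifngr1 was at 126, 145 and 133 CPM in WT and 93.7, 83.8 and 104 CPM in Arom (−0.52, adjusted p = 0.0326), without overlap. The feedback inhibitors Socs1 (−0.54, adjusted p = 0.0447) and Socs3 (−1.43, 0.0421), the cytosolic DNA sensor Mb21d1 or cGAS (−0.90, 0.0273) and the adaptor Myd88 (−0.84, 0.0273) were lower, as were Trim21 (−1.12, 0.0360) and the Ifi200 genes Ifi203 (−0.74, 0.0273) and Ifi204 (−0.63, 0.0370). Irf5 was the gene that was higher, at 1.65, 1.79 and 1.68 CPM against 4.00, 3.61 and 2.74 CPM (1.02, adjusted p = 0.0273). The 10 macrophage or monocyte markers, of a cell type known to use Irf5, summed to 14.8 to 17.6 CPM in WT and 22.0 to 52.3 CPM in Arom fibroblast-like cells. Their part in the Irf5 values was not tested.

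In endothelial cells 71 of the list were tested, with 3 higher and 4 lower, no larger a share than over all genes (8.49% and 6.32%). Ifngr2 was at 11.0, 12.8 and 12.6 CPM in WT and 19.9, 17.5 and 15.1 CPM in Arom (0.52, adjusted p = 0.0394), and Jak2, the kinase bound to it, was higher by 0.47 (adjusted p = 0.0350), as was Ifi204 (1.32, 0.0456), a gene with 80.1% of its UMIs in fibroblast-like cells, whose markers were also higher in Arom endothelial cells. The part of those markers in the Ifi204 values was not tested. Socs1 (−0.80, adjusted p = 0.00527), Il10rb (−0.61, 0.0254), Tgtp2 (−0.96, 0.0188) and Ddx60 (−0.95, 0.0376) were lower. In venular cells 67 were tested, of which 3 were lower (0.413% of all genes) and none higher (0.719%), Ifi203 (−0.74), Isg20 (−0.93) and Mb21d1 (−0.99), and 60 were negative. Among muscle stem cells or myoblasts, Ifnar1 was higher (1.15, adjusted p = 0.0249) and Socs1 lower (−2.08, 0.0132), with Irf8 (−1.54) and Isg20 (−1.15). In smaller sets, Il10rb was higher in smooth muscle cells or pericytes (1.21). Ifi205, with 91.6% of its UMIs in fibroblast-like cells, was higher in capillary cells (1.97), and the part of fibroblast-like cells in that was not tested. Irf5 (1.78) and Ticam1 (1.01) were higher in Esr1-high cells, where Socs3 (−2.14) and Ube2l6 (−1.15) were lower. Socs3 was also lower in Dmkn fibroblasts (−1.51).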

How the data were processed

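Single-cell RNA sequencing (10x Genomics Chromium) was performed on LAM of 3 WT and 3 Arom mice. The authors deposited raw UMI counts per gene and cell, made with Cell Ranger 3.0.2 (per the submitters' processing notes) on the mouse genome mm10 with human CYP19A1 added. Groups came from the sample labels. Before clustering, only barcodes under 200 genes or 1000 UMIs were left out, because the study's further limits (at most 2500 genes and 5% mitochondrial UMIs) kept only 14.2% to 38.0% of a library's barcodes. Unnamed clusters did not enter the tests, nor did T or NK cells, of which WT replicate 3 had 19. The cells were clustered with scanpy 1.11.5 (2000 variable genes without the listed ones, 30 components, 20 neighbours, Leiden resolution 0.8) and named from markers. A cluster whose second marker list scored at least 0.5 of the best stayed unnamed, a rule added after the clusters were seen. Doublets (1.15% to 2.92% marked) stayed in. UMIs were summed per mouse and type with at least 20 cells in every mouse. The sums were tested with edgeR 4.0.16 (quasi-likelihood, TMM, filterByExpr, R 4.3.3), Benjamini-Hochberg adjusted over all genes tested at 0.05, with the mouse as a block between types. The tests were tried on simulated data. P-values and SDs measure the spread between mice, and no counting intervals were computed for single libraries. The 34 members and the gene lists were chosen with earlier results of these data known. Named were members under the threshold, the 8 most abundant in endothelial and fibroblast-like cells, and the 6 largest differences between types. The methods pair a WT with an Arom littermate on each of 3 dates but do not tie replicate numbers to dates. Deviations of same-numbered WT and Arom sums correlated in endothelial cells (0.237, 0.149 and 0.316). Only the fits with the block took these as paired, and the main genotype fits had no block. The correlations come from the same counts as the tests. In fibroblast-like cells not every pair correlated (0.201, −0.133 and 0.154), and WT replicate 1 with Arom replicate 2 gave 0.239. Equal subgroup weight used limma 3.58.1 on log2(CPM + 0.5). Alternatives were DESeq2 1.42.0, other size factors, no filter, the study's limits, no doublets, other clusters, the block and each mouse left out. One gene's result is not reported here.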

Additional observations from a re-analysis of the deposited data

Results flagged for a closer look

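The following differences of the genotype effect between cells passed a test of the difference itself, given as the log2 fold change in the first-named cells minus that in the second. In endothelial against fibroblast-like cells, Ifi207 (2.24), Stat2 (1.07), Irgm1 (1.02), Gbp2 (0.99), Parp9 (0.95), Helz2 (0.92), Parp14 (0.77), Irf9 (0.73), Gbp7 (0.68) and Ifitm3 (0.46) were higher and Bst2 (−1.16) lower. Endothelial Ifi207 was low and moved with fibroblast markers, whose part was not tested. Of these, Ifi207, Gbp2, Parp9 and Irf9 passed with each mouse left out. Helz2 was lost without WT replicate 2 and Stat2 without WT replicate 2 or Arom replicate 1. Irgm1 was lost without each of 3 of the 6 mice in turn (the WT mice), Gbp7 without each of another 3 (WT replicates 2 and 3 and Arom replicate 2), and Parp14, Ifitm3 and Bst2 each without 4 of the 6.

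In venular against capillary endothelial cells, 15 ISGs were lower, namely Ifit1 (−1.92), Ifi207 (−1.66), Isg15 (−1.41), Ifi44 (−1.30), Trim25 (−1.28), Irf7 (−1.19), Rtp4 (−1.05), Oasl2 (−1.04), Parp14 (−1.02), Rsad2 (−1.02), Helz2 (−0.999), Irgm1 (−0.95), Igtp (−0.87), Xaf1 (−0.81) and Iigp1 (−0.78). Irf7 was lost without WT replicate 2 or Arom replicate 1 and the other 14 without at least 4 of the 6 mice. In Esr1-high against other fibroblast-like cells, Gbp7 (−1.35) was lower. The last 2 sets of values come from comparisons added after the subgroups were seen.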

How the results depend on the processing

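The number of ISGs called depended on settings and mice, and within the study's limits several directions turned as well. The cause of each change was not tested. Counts in this section are given without the share of all genes called in the same fit, and that share moved too. Genes lower in endothelial cells went from 6.32% to 10.7% with the replicate block. In fibroblast-like cells they went from 5.77% to 14.1% without Arom replicate 3. A change in a count is therefore not read as particular to the ISGs. DESeq2 gave 3 higher and 9 lower in fibroblast-like cells, 4 higher and 3 lower in the 7 other types, 1 higher and 22 lower in the 7 subgroups, 2 lower in the endothelial against fibroblast-like interaction and 5 in the Esr1-high interaction. The replicate block gave 1 higher and 9 lower in fibroblast-like cells, whose numbers did not pair, 7 lower in endothelial cells, 3 higher and 7 lower in other types and 6 higher and 23 lower in subgroups. With no replicate block, the endothelial against fibroblast-like interaction had 2 higher and 0 lower, the venular interaction 0, the Esr1-high interaction 0, and macrophages or monocytes 3 lower. Without a filter, other types had 2 higher and 4 lower, subgroups 4 higher and 22 lower, and the Esr1-high interaction 4 lower. Without doublets, other types had 2 lower. With the listed genes in clustering, endothelial cells had 1 higher, other types 0 lower and the Esr1-high interaction 4. With RLE size factors, that interaction had 2, and with resolution 1.2 it had 3 and the venular interaction 7. With equal subgroup weight, 1 was lower in fibroblast-like and 0 higher in endothelial cells.

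Within the study's limits, 0 ISGs were lower in fibroblast-like cells, endothelial cells, other types (30 gene tests left) or subgroups. The endothelial against fibroblast-like interaction had 1 higher and 0 lower, the venular interaction 0 and the Esr1-high interaction, fitted without WT replicates 2 and 3, which had under 20 such cells, 0, and macrophages or monocytes 8 higher and 13 lower. Under these limits the direction turned for the fibroblast-like median (0.387), the endothelial median (0.108), Ifit2 in fibroblast-like cells (0.0093), and the interactions of Gbp7 (−0.099) and Rsad2 (0.157, venular). The summed levels without Ifitm3 became 953 CPM (WT) and 1288 CPM (Arom, 763 CPM without Arom replicate 1) in fibroblast-like cells and 5877 CPM in Arom endothelial cells (the WT mice at 6208, 6056 and 4724 CPM). With Ifitm3 they became 3229 and 3650 CPM in fibroblast-like and 10786 and 11393 CPM in endothelial cells, so that in these 4 sums the mean of Arom turned from below to above that of WT. Without Arom replicate 1 it stayed below in 3 of them, all but the endothelial sum with Ifitm3 (Arom endothelial replicates 1 to 3 at 12349, 10693 and 11136 CPM with Ifitm3 and at 6630, 5149 and 5851 CPM without it).

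Shares of cells moved with their definition. For fibroblast-like cells without Ifitm3 they were 7.77% (WT) and 7.68% (Arom) at 1000 UMIs, 7.47% and 7.19% at 5 ISG UMIs and 26.5% and 27.8% within the limits. With Ifitm3 they were 48.8% and 41.0%, 55.4% and 46.9%, and 83.3% (Arom, limits). For endothelial cells without Ifitm3 they were 60.5% and 62.9% at 1000 UMIs, 67.9% and 68.6% at 5 ISG UMIs and 87.5% (Arom, limits). With Ifitm3 they were 89.7% and 92.5%, 96.1% and 96.5%, 99.4% and 99.6%, and 97.3% (Arom, resolution 1.2).

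With 1 mouse left out at a time, counts of called ISGs ranged as follows. In fibroblast-like cells 0 to 3 were higher and 0 to 8 lower, in endothelial cells 0 to 2 and 0 to 4, in other types 0 to 5 and 0 to 4 and in subgroups 0 to 6 and 1 to 40. In the endothelial against fibroblast-like interaction 4 to 11 were higher and 0 to 3 lower, in the venular interaction 0 to 27 lower and in the Esr1-high interaction 0 to 9 lower. Endothelial against fibroblast-like cells stayed at 30 higher and 2 lower, and macrophages or monocytes had 12 to 16 higher and 4 to 5 lower. The endothelial median ranged from −0.141 to 0.066. Summed levels without Ifitm3 ranged from 771 to 829 CPM (WT) and 542 to 755 CPM (Arom) in fibroblast-like cells and from 4868 to 5439 and 4690 to 5287 CPM in endothelial cells, and shares without Ifitm3 from 19.7% to 22.5% and 14.5% to 21.1%, and from 82.2% to 85.01% and 79.4% to 83.7%. With Ifitm3, summed levels ranged from 2800 to 2896 and 2124 to 2402 CPM and from 9545 to 10323 and 9634 to 10339 CPM, and shares from 79.0% to 82.3% and 71.3% to 72.6%, and from 98.9% to 99.3% and 99.1% to 99.4%. With 3 mice a genotype, a result that missed the threshold is not shown to be equal between genotypes.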
